A study of Homo sapiens with 4 samples.

Results

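Long intergenic noncoding RNA (lincRNA) rows made up a small share of the transcripts quantified in HCCLM3, an established human hepatocellular carcinoma line. All rows typed lincRNA were taken except those of RMRP, MALAT1, NEAT1, GAS5, ZFAS1, AL139099.5 and the SNHG genes, which left 935 of the 1010 lincRNA rows and of the 38510 transcript rows in all. They belonged to 610 of 13036 gene identifiers. 460 of these genes had a single row, 129 had 2 to 4 rows, 21 had 5 or more, and PVT1 had the most with 18. The 2 shCtrl samples carried a control short hairpin RNA and the 2 shKIAA1429 samples a hairpin against KIAA1429, both delivered by lentivirus for stable expression in the same line. Every value was an FPKM, fragments scaled to transcript length and to the mapped total, and the values of a gene's lincRNA rows were summed to give its level. The question was how the levels of these RNAs differed between the samples with the hairpin against KIAA1429 and those with the control hairpin. The labels do not say that the replicates came from separate cultures, so the spread between them may be technical, and the sequencing depth behind an FPKM is unknown.

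The lincRNA class is defined by what it lacks and by where it lies: long transcripts without a recognised open reading frame, outside protein-coding genes. Its members include scaffolds that bind many copies of a protein, primary transcripts from which microRNAs are cut, the RNA template of telomerase and RNAs that act on neighbouring genes during X inactivation. KIAA1429, now named VIRMA, is the large scaffold subunit of the m6A methyltransferase, which methylates adenosines in RNA, most often at the A of a GGAC core, and noncoding RNAs carry this mark as well as mRNAs do.

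VIRMA itself was listed at 9.37 and 14.1 FPKM in the shCtrl samples and at 6.90 and 8.52 FPKM in the shKIAA1429 samples. Both knockdown values lay below both controls, in the direction of the labels, but the log2 fold change of -0.53 ± 0.24 (SE, n = 2 per group) had an adjusted p of 0.917 in limma, and the exact permutation test gave 0.333, the smallest p that 2 against 2 samples allow. The HCCLM3 label was read against fixed markers. KRT8 and KRT18, keratins of simple epithelia, stood between 971 and 1176 FPKM in every sample, but the epithelial markers EPCAM and CDH1 had no row to analyse here. Likewise, 8 of 9 hepatocyte markers, ALB, AFP and APOA1 among them, had no row and SERPINA1 reached only 3.34 to 5.63 FPKM. CD68 ranged from 44.1 to 52.3 FPKM while the other leukocyte markers, PTPRC and CD3E, had no row to analyse. Of the fibroblast markers, COL1A1 stayed between 3.54 and 6.76 FPKM and DCN between 0.120 and 1.06 FPKM, and no endothelial marker had a row. In bulk samples such as these, fewer cells of a type and less RNA per cell cannot be told apart.

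Several of the members with the highest levels were single-exon rows that resembled structured small RNAs or lay between the genes that flank one. The first bases of 4 such rows are shown because they let a reader see which RNAs these levels may hold. The sequences were read from GRCh37 over the start of each row, 5′ to 3′, in lower case.
AL356488.2, chr1:109642815-109642934, plus strand: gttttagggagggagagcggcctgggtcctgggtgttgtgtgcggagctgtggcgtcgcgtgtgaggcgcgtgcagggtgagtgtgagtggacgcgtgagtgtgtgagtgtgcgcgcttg
AC007952.4, chr17:19015830-19015949, minus strand: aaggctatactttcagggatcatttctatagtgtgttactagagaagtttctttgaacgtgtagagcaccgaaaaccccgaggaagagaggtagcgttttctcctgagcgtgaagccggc
AL360012.1, chr1:28975112-28975231, plus strand: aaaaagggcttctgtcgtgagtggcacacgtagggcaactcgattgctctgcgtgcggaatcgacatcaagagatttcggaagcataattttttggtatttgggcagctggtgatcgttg
Z93241.1, chr22:43011250-43011369, plus strand: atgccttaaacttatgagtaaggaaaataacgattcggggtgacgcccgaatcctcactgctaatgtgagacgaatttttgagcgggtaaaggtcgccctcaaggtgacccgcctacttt
AL356488.2 is a 427-base row that begins between TMEM167B and CFAP276, and RefSeq (GRCh38.p14) places SCARNA2, a guide RNA of the Cajal body with 420 bases, between the same 2 genes. AC007952.4, with 637 bases, was 99.2% identical over its whole length to the annotated U3 small nucleolar RNA transcript SNORD3B-1, of which it covered 84.2%. AL360012.1, with 131 bases, was 85.5% identical to a U11 pseudogene, RNU11-6P, and RefSeq places RNU11 between TAF12 and GMEB1, which also flank this row. The first 148 bases of Z93241.1 matched the U12 pseudogene RNU12-2P at 90.9%, and RefSeq places RNU12 between POLDIP3 and CYB5R3, where this row begins. The member rows themselves were left out of the small RNAs they were aligned to, so each match is to another annotated transcript. U11 and U12 are the small nuclear RNAs of the minor spliceosome and U3 acts in ribosomal RNA processing. Reads of such RNAs can map to several copies, so the level of each row is uncertain as a measure of a single gene. The sources used here do not make clear whether poly(A) RNA was selected, which would bear on what the FPKM of these rows and of TERC measure.

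AL356488.2 had the highest mean of all members, with 410 and 403 FPKM in the shCtrl samples and 492 and 381 FPKM in the shKIAA1429 samples. The knockdown values lay on either side of the controls, and the log2 fold change was 0.09 ± 0.15 (SE, n = 2 per group). AC007952.4 was the steadiest of the group, at 147 and 160 FPKM against 156 and 161 FPKM. All 4 rows separated by replicate number and not by hairpin, AL356488.2 with the samples numbered 1 higher and the other 3 with the samples numbered 2 higher. The share of all genes with such an order was not counted. AL360012.1 was listed at 54.2 and 53.2 FPKM in the samples numbered 1 and at 71.6 and 84.5 FPKM in those numbered 2. Z93241.1 showed the same order, with 33.2 and 34.0 FPKM in the samples numbered 1 and 42.7 and 42.4 FPKM in those numbered 2. Neither row separated the groups. AC245014.3, of which 156 bases are identical to the U1 variant gene RNVU1-14, went further, with 12.1 and 42.3 FPKM in the samples numbered 1 and a listed value of 0 in both samples numbered 2. Altogether 12 rows aligned to an annotated small nuclear or nucleolar RNA over at least 80% of its length at an identity of at least 80%, and in the other 8 the match took up at most 8.23% of the row. Z93241.1 and AC245014.3 were chosen after their values were seen.

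TERC, the RNA subunit of telomerase, was second in level. The enzyme copies a short stretch of this RNA to extend chromosome ends, and the row holds that template, 11 bases complementary to the telomeric repeat, at bases 46 to 56. It is shown within the first 100 bases, with the template in capitals.
TERC, chr3:169482749-169482848, minus strand: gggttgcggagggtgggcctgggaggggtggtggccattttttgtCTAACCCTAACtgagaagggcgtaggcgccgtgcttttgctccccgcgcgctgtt
The level of TERC was 283 and 278 FPKM in the shCtrl samples and 355 and 300 FPKM in the shKIAA1429 samples. Both knockdown samples stood above both controls, but the difference between the knockdown samples was larger than the gap between the groups. The log2 fold change was 0.22 ± 0.12 (SE, n = 2 per group; adjusted p = 0.944 in limma). TERC lies between MECOM and ACTRT3 at chr3:169482308-169482848 on the minus strand. ACTRT3, whose start lies within 10 kb, was listed at 0.472 and 0.512 FPKM against 0.728 and 0.667 FPKM, and MYNN, the other neighbour within that distance, had a log2 fold change of -0.10 ± 0.15.

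**Figure D1:**
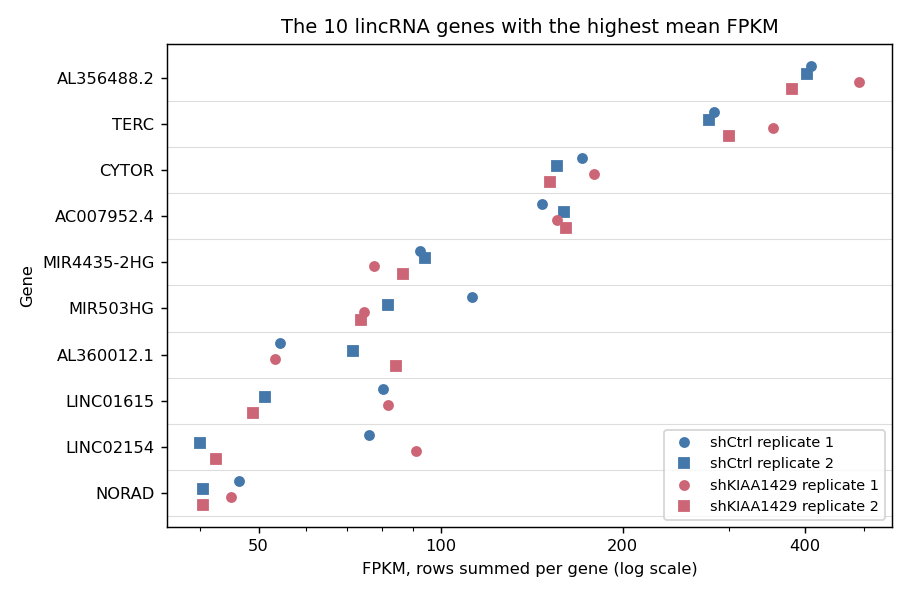
FPKM of the 10 lincRNA genes with the highest mean, as a point per sample on a log axis, with circles for replicates 1 and squares for replicates 2. The groups separate only for TERC, MIR4435-2HG and MIR503HG, while the other 7 separate by replicate number, an order not counted over all genes.

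NORAD, a cytoplasmic RNA that binds PUMILIO proteins through many copies of their recognition element, had the lowest mean of the 10 genes plotted. The element was searched as TGTANATA on the transcript strand. NORAD held 15 copies and HCG11, named after the HLA complex, held 16, and the next highest count among the 912 members with a matched sequence was 4. Only 80 members, 8.77%, held any copy, beside 20.8% of protein-coding rows and 7.02% of processed_transcript rows. This share depends on row length, and protein-coding rows are longer. Per kilobase of all bases the element occurred 0.099 times in members, 0.112 times in protein-coding rows and 0.0785 times in processed_transcript rows. The 200-base stretch with the most copies is shown for each, with the elements in capitals, because these elements are what sets the 2 RNAs apart from the other members.
NORAD, chr20:34636228-34636427, minus strand: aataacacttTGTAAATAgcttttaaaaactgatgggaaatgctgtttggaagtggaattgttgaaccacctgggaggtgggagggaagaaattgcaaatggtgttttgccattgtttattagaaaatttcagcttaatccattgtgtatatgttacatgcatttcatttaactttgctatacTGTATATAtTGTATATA
HCG11, chr6:26524383-26524582, plus strand: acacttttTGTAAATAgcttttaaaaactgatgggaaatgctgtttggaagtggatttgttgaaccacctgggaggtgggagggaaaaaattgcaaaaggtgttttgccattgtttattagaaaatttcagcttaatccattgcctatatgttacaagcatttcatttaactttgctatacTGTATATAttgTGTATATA
NORAD and HCG11 aligned over 4661 bases at 90.5% identity, and LINC02228, a 720-base row on chromosome 5, was 98.5% identical to NORAD over 337 bases. All 3 are single rows, so shared reads may have been split between them, and that split is uncertain. NORAD was listed at 46.4 and 40.5 FPKM in the shCtrl samples and at 45.0 and 40.5 FPKM in the shKIAA1429 samples. HCG11 was far lower, with 1.23 and 0.933 FPKM against 1.24 and 1.15 FPKM. For both genes the groups overlapped, with log2 fold changes of -0.02 ± 0.14 and 0.08 ± 0.17 (SE, n = 2 per group). The copy number of the element thus set these 2 RNAs apart from all other members, while their levels differed widely and neither differed between the groups beyond the replicates.

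**Figure D2:**
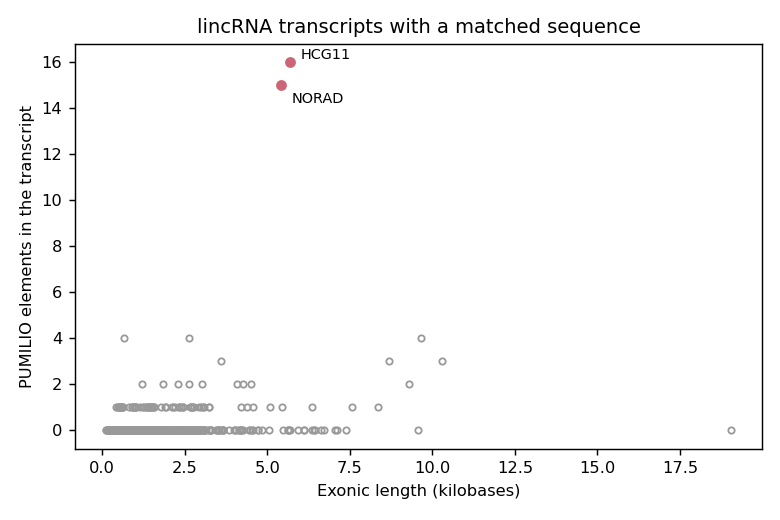
Number of PUMILIO elements in each of the 912 lincRNA transcripts with a matched sequence, against its exonic length in kilobases. HCG11 with 16 and NORAD with 15 stand apart from the other transcripts, which hold 4 or fewer at any length.

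Another 13 members were genes named as microRNA hosts, whose transcripts contain or lie beside hairpins from which microRNAs are cut. For 8 of them, hairpins on the same strand within the span of the rows had a mature sequence in the RefSeq table (GRCh38.p14), 24 distinct mature microRNAs in all. For MIR17HG, MIR22HG, MIR137HG, MIR181A1HG and MIR4458HG this lookup returned none, which does not show that they hold no microRNA. The guide strands of the better known ones are shown with the seed, bases 2 to 8, in capitals, because the seed decides which targets a microRNA pairs with and shows which hosts yield microRNAs of the same family.
hsa-miR-221-3p: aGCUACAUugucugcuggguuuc
hsa-miR-222-3p: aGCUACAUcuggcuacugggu
hsa-let-7a-5p: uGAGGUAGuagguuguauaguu
hsa-let-7b-5p: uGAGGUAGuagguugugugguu
hsa-miR-125b-5p: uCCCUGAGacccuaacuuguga
hsa-miR-100-5p: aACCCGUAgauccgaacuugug
hsa-miR-503-5p: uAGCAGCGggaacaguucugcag
hsa-miR-34a-5p: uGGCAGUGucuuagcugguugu
MIR222HG spans the hairpins of miR-221 (chrX:45605585-45605694) and miR-222 (chrX:45606421-45606530), both on the minus strand, which share the seed GCUACAU. The seed GAGGUAG of the let-7 family occurs in MIR100HG, which spans let-7a-2, and in MIRLET7BHG, which spans let-7a-3 and let-7b. The mature miR-125b-5p is encoded in MIR100HG and again in MIR99AHG on chromosome 21. MIR503HG spans miR-503 (chrX:133680358-133680428) and MIR34AHG spans miR-34a, a microRNA induced by p53.

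The hosts differed widely in level, from a mean of 0.989 FPKM for MIR17HG to 87.7 FPKM for MIR4435-2HG. MIR503HG showed the largest difference between the groups, with 113 and 82.0 FPKM in the shCtrl samples and 74.6 and 73.9 FPKM in the shKIAA1429 samples. Both knockdown values lay below both controls, and the control samples were much further apart than the knockdown samples. Its log2 fold change was -0.37 ± 0.18 (SE, n = 2 per group), with an adjusted p of 0.923 in limma. Without shCtrl replicate 1 it was -0.14, less far from 0 than several other hosts in that fit, such as MIRLET7BHG at -0.32. MIR4435-2HG was also lower without overlap, at 92.5 and 94.1 FPKM against 77.5 and 86.7 FPKM, and so was MIR22HG, at 6.88 and 5.48 FPKM against 5.45 and 4.83 FPKM. Conversely, MIR137HG went from 22.1 and 28.6 FPKM to 31.4 and 32.0 FPKM, and MIR222HG from 13.4 and 13.0 FPKM to 14.0 and 17.8 FPKM. Of the 13 hosts, 2 were thus higher and 3 lower without overlap, where 16.9% and 16.7% of all genes were, none passed an adjusted p of 0.05, and their median log2 fold change was -0.08, beside -0.01 over all genes tested. MIRLET7BHG, MIR34AHG, MIR100HG, MIR181A1HG, MIR548XHG, MIR4458HG, MIR99AHG and MIR17HG overlapped between the groups. The levels are those of the host transcripts, and mature microRNAs were not measured.

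**Figure D3:**
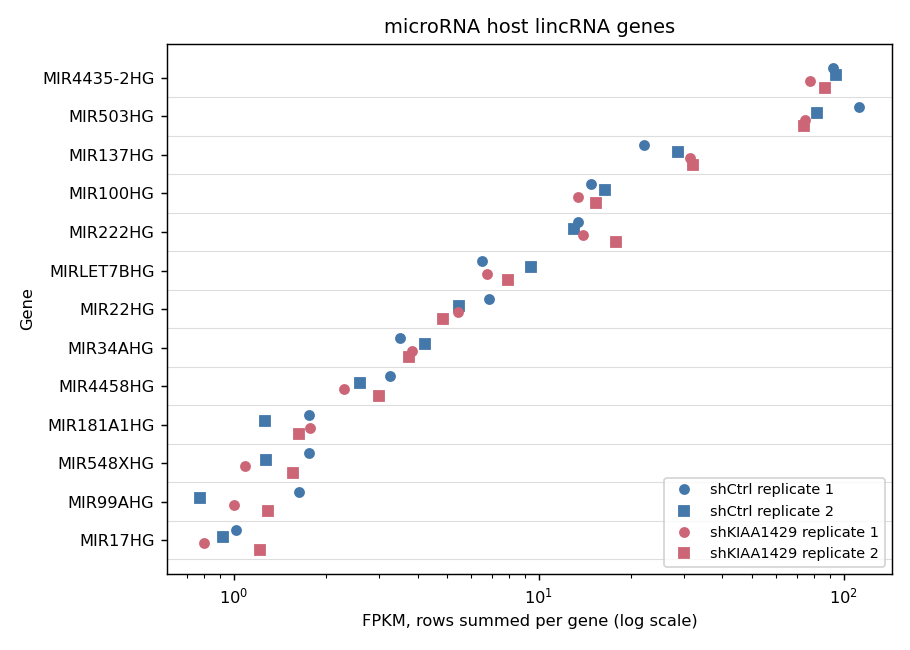
FPKM of the 13 microRNA host genes, as a point per sample on a log axis, sorted by their mean. MIR503HG, MIR4435-2HG and MIR22HG lie lower in both shKIAA1429 samples, MIR137HG and MIR222HG higher, and the other 8 overlap.

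CYTOR, a cytoplasmic RNA linked to the actin cytoskeleton, and MIR4435-2HG lie in duplicated stretches of chromosome 2 and share sequence. A 969-base transcript of MIR4435-2HG aligned to a CYTOR transcript over its whole length at 99.7% identity, so reads of either gene may have been assigned to the other. CYTOR reached 171 and 156 FPKM in the shCtrl samples and 180 and 152 FPKM in the shKIAA1429 samples. Its values overlapped between the groups, with a log2 fold change of 0.01 ± 0.14 (SE, n = 2 per group). A single transcript of its 10, ENST00000331944, carried 68.9% to 78.7% of the sum in each sample. Across all members, 34 pairs of genes, made of 56 genes, shared at least 300 bases at 90% identity or more, among them FAM225A with FAM225B and LINC01106 with LINC01123.

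Below these genes the levels fell off quickly. The median lincRNA row was at 0.928 to 1.06 FPKM across the samples, while the median protein-coding row was at 1.67 to 1.74 FPKM. The median processed_transcript row was lower than the lincRNA row, at 0.843 to 0.915 FPKM. Only 37 of the 935 rows had a mean of 10 FPKM or more, 417 had a mean between 1 and 10 and 481 were below 1. The 10 highest genes held 45.7% to 48.9% of the lincRNA total. This total was 3099 and 2920 FPKM in the shCtrl samples and 3285 and 3005 FPKM in the shKIAA1429 samples, or 0.780% to 0.842% of all listed FPKM. It was higher in replicate 1 of each group than in replicate 2 and did not separate by hairpin (exact permutation test, two-sided p = 0.667, n = 2 per group).

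Of the 10 highest genes, the 7 whose groups overlapped all separated by replicate number, with the widest gaps in LINC01615 and LINC02154. LINC01615 was listed at 80.4 and 81.7 FPKM in the samples numbered 1 and at 51.2 and 49.0 FPKM in the samples numbered 2. LINC02154 was at 76.0 and 91.0 FPKM in the samples numbered 1 and at 40.0 and 42.6 FPKM in those numbered 2. In both genes the knockdown and control samples of the same number resembled each other more than replicates of the same group did. How many of all genes separated by replicate number was not counted, so this is not shown to be a trait of these members. Deviations of same-numbered samples also correlated over all genes tested, at 0.32, beside 0.44 over the tested lincRNA genes. What differed between the samples numbered 1 and 2 is not stated in the labels.

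Between the groups, 0 of the 378 tested lincRNA genes met both criteria in limma, an adjusted p below 0.05 together with a log2 fold change beyond 1 in either direction, and neither did any of the 11658 genes of all types (0.0%). The test took genes with at least 1 FPKM in at least 2 samples, on log2(FPKM + 1), a scale that understates the change of low genes. The other 232 lincRNA genes were too low to be tested. At an unadjusted p under 0.05 there were 16 lincRNA genes, 4.23%, beside 5.63% of all genes tested. Of these 16 among 378 tested, 10 were higher and 6 lower in the shKIAA1429 samples. Over all 11658 genes, 347 (2.98%) were higher and 309 (2.65%) lower. The smallest adjusted p in limma of any lincRNA gene was 0.620. The median log2 fold change was 0.02 for lincRNA genes and -0.01 for all genes. In the 360 lincRNA genes with a mean of at least 1 FPKM, replicates differed by a median of 0.25 on the log2 scale. At matched levels the replicates of lincRNA genes were about as close as those of other genes, with medians of 0.25 and 0.23 for means of 2 to 5 FPKM.

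Counting genes whose groups did not overlap gave more lincRNA genes higher than lower. Both shKIAA1429 values exceeded both shCtrl values in 71 tested lincRNA genes, 18.8%, beside 16.9% of all genes. Both were lower in 40, 10.6%, beside 16.7% of all genes. A gene could pass the filter through its higher group alone, so the count was repeated without the filter of the test. Of all 610 lincRNA genes, 125 (20.5%) were higher and 70 (11.5%) lower, beside 17.6% and 16.7% of all genes. Every listed lincRNA row reached at least 0.515 FPKM in some sample. A low gene could thus still enter the list through its higher group, and this count does not remove that. The share of higher genes was thus near the background in both counts, and the share of lower genes stood below it. The median log2 fold change varied when a sample was left out. Without shCtrl replicate 2 it was -0.019 for lincRNA genes, beside -0.006 over all genes. Without shCtrl replicate 1 it was 0.072, beside -0.009. Leaving out shKIAA1429 replicate 1 gave 0.028, beside 0.011, and leaving out shKIAA1429 replicate 2 gave 0.046, beside -0.013. No test was made of these shares and counts, since genes of the same 4 samples are not independent.

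**Figure D4:**
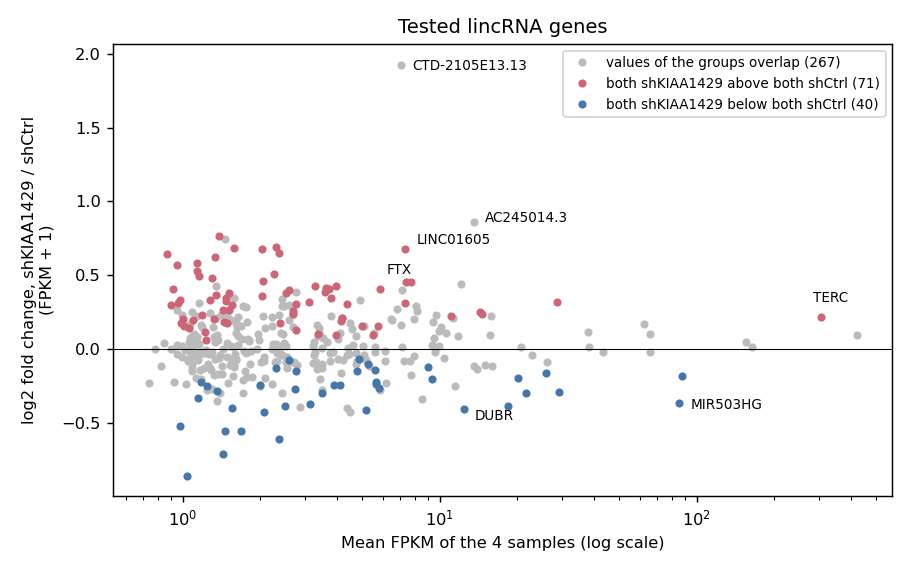
Log2 fold change of the 378 tested lincRNA genes between shKIAA1429 and shCtrl, on FPKM + 1, against their mean FPKM on a log axis, coloured by whether the values of the groups overlap. The largest value, 1.93 for CTD-2105E13.13, belongs to a gene whose groups overlap.

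By size, where 125 of all 11658 genes tested (1.07%) exceeded an absolute log2 fold change of 1, 1 of the 378 lincRNA genes did. This was CTD-2105E13.13, a single-exon row on chromosome 19 that overlaps UBE2S on its own strand and RPL28 on the other, with 0.384 and 1.02 FPKM in the shCtrl samples and 26.4 and 0.473 FPKM in the shKIAA1429 samples. Its high value came from a single library and its groups overlapped, and it was chosen after its values were seen. Among genes with a mean of at least 2 FPKM and no overlap, the 5 furthest upward were AF241725.1, LINC01583, LINC01605, AC091182.2 and AC005332.6, with log2 fold changes from 0.51 to 0.69. LINC01605 was the most abundant of them, at 4.62 and 6.29 FPKM in the shCtrl samples and at 8.63 and 9.86 FPKM in the shKIAA1429 samples. The groups were apart by more than either pair of replicates, with a log2 fold change of 0.68 ± 0.19 (SE, n = 2 per group) and an adjusted p of 0.758 in limma. AC091182.2 lies 14616 bases from LINC01605 on the same strand of chromosome 8 and showed a like difference, from 1.38 and 1.86 FPKM to 2.79 and 3.45 FPKM (log2 fold change 0.65 ± 0.19). AF241725.1, on chromosome 21, went from 1.39 and 1.64 FPKM to 2.69 and 3.47 FPKM.

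The 5 furthest downward by the same rule were LINC02310, AC090204.1, LINC02454, DUBR and AC108134.2, with log2 fold changes from -0.61 to -0.39. DUBR, on chromosome 3, was the most abundant, at 16.0 and 12.6 FPKM in the shCtrl samples and at 11.1 and 9.85 FPKM in the shKIAA1429 samples. The gap between the groups was smaller than the gap between the controls, and the log2 fold change was -0.41 ± 0.18 (SE, n = 2 per group; adjusted p = 0.901 in limma). LINC02310, on chromosome 14, had 3.48 and 2.68 FPKM in the controls and 1.48 and 1.87 FPKM after knockdown. LINC02454, on chromosome 12, had 6.50 and 5.59 FPKM in the controls and 4.48 and 4.09 FPKM after knockdown. The 16 lincRNA genes with an unadjusted p under 0.05 all separated without overlap, with absolute log2 fold changes of up to 0.77 and adjusted p-values in limma from 0.620 to 0.884. AL121761.1, whose rows now belong to the protein-coding gene RIN2, had a log2 fold change of 0.77 at a mean of 1.39 FPKM.

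At the level of single transcripts, none of the 507 tested lincRNA rows passed both thresholds, and none of 24996 rows of any type did (0.0%). An unadjusted p under 0.05 was found for 15 of them, 2.96%, beside 6.28% of all rows. Of these 15 among 507 tested, 11 were higher and 4 lower. Over all 24996 rows, 775 (3.1%) were higher and 795 (3.18%) lower. The groups did not overlap in 89 that were higher, 17.6%, and 60 that were lower, 11.8%, beside 16.7% and 16.8% of all rows. Without the filter, 201 of the 935 rows (21.5%) were higher and 110 (11.8%) lower, beside 18.5% and 16.6% of all rows. The listing floor given above applied to these lincRNA rows too. An absolute log2 fold change over 1 was found for 10 of the 507 rows, 6 higher and 4 lower, where 1807 of all 24996 rows (7.23%) exceeded it. In 5 of these 10 the groups overlapped, as for LINC01322, whose transcript ENST00000470138 was at 3.27 to 3.34 FPKM in every library but shKIAA1429 replicate 1, where it was at 0.020 FPKM. In BX284668.5 and in AC105277.1 ENST00000634763 the groups did not overlap, but a single library was at or near 0.

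The other 3 belonged to EBLN3P and MIR100HG, where a transcript was lower while another of the same gene was higher. EBLN3P is a gene derived from an ancient bornavirus-like nucleoprotein. Its spliced transcript ENST00000625445, not the only spliced one, was at 5.70 and 3.96 FPKM in the shCtrl samples and at 1.81 and 1.33 FPKM in the shKIAA1429 samples. The single-exon transcript ENST00000628924 of the same gene showed the reverse, at 0.337 and 0.298 FPKM against 1.95 and 2.15 FPKM. Their log2 fold changes were -1.17 ± 0.26 and 1.21 ± 0.19 (SE, n = 2 per group), with adjusted p-values of 0.489 and 0.280 in limma, the latter the smallest of any lincRNA row. ENST00000625445 went from 67.5% and 75.5% of the gene's FPKM to 30.0% and 26.3%, and the single-exon form from at most 5.68% to 32.3% and 42.5%. The rest lay in ENST00000627197, ENST00000630598 and ENST00000631093, which are spliced too and overlapped between the groups. The fall in ENST00000625445 is thus not a fall in all spliced EBLN3P RNA. ENST00000625445 and ENST00000628924 share 1157 bases at chr9:37086665-37087821, within the second exon of the former, so their values are not independent estimates. The sum over the gene was 8.44 and 5.24 FPKM against 6.05 and 5.06 FPKM, with overlapping groups.

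MIR100HG showed a second such pair. Its transcript ENST00000524376 was at 5.83 and 5.21 FPKM in the shCtrl samples and at 3.06 and 2.98 FPKM in the shKIAA1429 samples, while ENST00000528986 was at 0.588 and 0.839 FPKM against 3.02 and 2.44 FPKM. The log2 fold changes were -0.70 ± 0.18 and 1.12 ± 0.22 (SE, n = 2 per group), with adjusted p-values of 0.588 and 0.406 in limma. In both pairs every knockdown sample lay on the same side of every control by more than the replicates differed. In GENCODE 44, where the ends of both MIR100HG transcripts differ from those in the files, they share 2672 bases, which are 99.3% of the shorter, ENST00000524376, and 76.0% of the longer, so that their values are not independent estimates. The sum over the gene, 14.8 and 16.5 FPKM against 13.5 and 15.4 FPKM, overlapped between the groups. ENST00000628924 and ENST00000528986 fell outside the rule for named transcripts and were chosen after their values were seen.

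**Figure D5:**
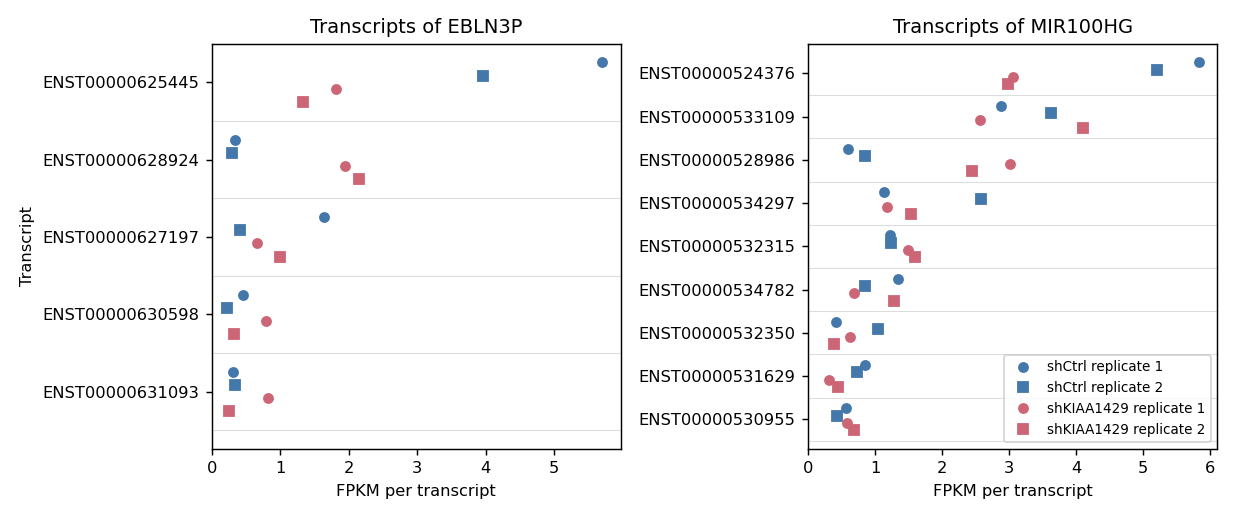
FPKM of each transcript of EBLN3P and MIR100HG, as a point per sample on a linear axis. ENST00000625445 and ENST00000524376 are lower, and ENST00000628924 and ENST00000528986 higher, in both shKIAA1429 samples than in both shCtrl samples.

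Of the other transcripts furthest apart by the rule, those higher were BX284668.5 (log2 fold change 1.08), LINC01605 ENST00000522718 (0.87), PVT1 ENST00000517838 (0.73), CYTOR ENST00000413202 (0.71) and AF241725.1 (0.69). The transcript of BX284668.5 was at 0.0652 and 3.33 FPKM in the shCtrl samples and at 3.64 and 3.41 FPKM in the shKIAA1429 samples, so that 1 control library made the difference. In LINC01605 the difference lay in ENST00000522718, with 3.62 and 2.91 FPKM against 7.44 and 6.11 FPKM, while its other transcript went with the replicate number, at 1.01 and 3.38 FPKM against 1.19 and 3.75 FPKM. Those lower, beside EBLN3P and MIR100HG, were AC105277.1 ENST00000634763 (-1.42), AC092807.3 ENST00000488557 (-0.89) and LINC02454 ENST00000539116 (-0.63). The AC105277.1 transcript was at 3.81 and 4.33 FPKM in the shCtrl samples and at a listed 0 and 2.56 FPKM in the shKIAA1429 samples, while the sum over its gene overlapped.

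The remaining fixed groups held few members, and none of their genes passed an adjusted p of 0.05. JPX and FTX, noncoding genes of the X inactivation centre, were both at a moderate level. FTX was at 4.43 and 5.33 FPKM in the shCtrl samples and at 6.54 and 7.03 FPKM in the shKIAA1429 samples, without overlap (log2 fold change 0.41 ± 0.16, SE; adjusted p = 0.887 in limma). JPX overlapped, at 3.96 and 4.90 FPKM against 4.84 and 3.72 FPKM. Of 11 hepatoma and liver lincRNAs only CRNDE was a member, with 4.21 and 5.29 FPKM against 5.64 and 5.14 FPKM. The p53 and DNA damage list held 7 names, of which PURPL and LINC00657 are other names of LINC01021 and NORAD. NORAD, LINC01021 and TP53TG1 were members, and the groups overlapped for all 3, LINC01021 running from 8.82 to 10.7 FPKM and TP53TG1 from 1.57 to 2.69 FPKM.

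The growth and cancer list had 14 members among its 30 names, which include LINC00152 and MIR4435-1HG as other names of CYTOR and MIR4435-2HG. Of the members 12 were tested, 7 with a log2 fold change above 0 and 5 below. LINC01116 and EPB41L4A-AS1 were higher without overlap. EPB41L4A-AS1, which overlaps EPB41L4A on the opposite strand, went from 3.25 and 2.68 FPKM to 4.07 and 4.48 FPKM (log2 fold change 0.41 ± 0.16, SE, n = 2 per group; adjusted p = 0.889 in limma). MIR4435-2HG and LUCAT1 were lower, the latter below the test's filter, at 0.683 and 0.586 FPKM against 0.197 and 0.517 FPKM. PVT1, which lies beside MYC and carried 35.5 and 36.5 FPKM in the shCtrl samples, was at 36.2 and 42.4 FPKM in the shKIAA1429 samples and overlapped. DANCR, an RNA known to hold back cell differentiation, ran by replicate number, with 5.84 and 6.78 FPKM in the samples numbered 1 and 8.72 and 11.2 FPKM in those numbered 2. LINC00963 had the lowest log2 fold change of the list, -0.40 ± 0.27, and its groups overlapped. The median log2 fold change of the list was 0.05, beside -0.01 for all genes tested.

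In structure the lincRNA rows were shorter and less spliced than protein-coding rows. Of the 935 rows, 912 were matched by identifier to the GENCODE 44 annotation lifted to GRCh37, with a median of 2 exons and of 972 exonic bases. Protein-coding rows had 7 exons and 2097 bases, and processed_transcript rows 4 exons and 725 bases, so that the latter were shorter still. Single-exon rows made up 23.0% of the matched lincRNA rows and 1.28% of the protein-coding rows. Their median level was 0.885 FPKM, near the 0.999 FPKM of spliced lincRNA rows. The class label did not always hold: 891 matched rows still belong to a long noncoding gene in this annotation, while 16 rows of 8 genes now belong to protein-coding genes such as DISP1, OXR1 and RIN2. A protein-coding gene overlapped 97 rows on the same strand and 106 on the opposite strand, and 743 overlapped none. A protein-coding transcript started within 1 kb of 213 rows, on the opposite strand in 178 of them, and the median distance to the nearest such start was 23085 bases. The sources used here do not say that counting used strand, and without it reads of overlapping genes cannot be told apart.

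The GGAC core of the m6A motif occurred in 92.2% of matched lincRNA rows at a median of 3.38 per kilobase, and in 98.4% of protein-coding rows at 4.03 per kilobase. In processed_transcript rows it occurred in 92.5%, at 3.99 per kilobase. These counts are of letters on the transcript strand, and methylation was not measured in these samples. As examples of the range, MIR503HG held 5.49 to 10.8 per kilobase in its 5 transcripts. The main transcript of CYTOR held a single copy in 529 bases, while its transcript ENST00000414030 held 4.99 per kilobase. In MIR100HG the lower ENST00000524376 held 1.11 per kilobase and the higher ENST00000528986 held 1.14. Across the 491 tested rows with a sequence, which come from the same 4 libraries, GGAC density and log2 fold change had a Spearman rho of -0.09, and exonic length and log2 fold change of 0.01. Over 128 pairs of a tested lincRNA gene with the nearest protein-coding gene starting within 10 kb, the log2 fold changes had a rho of 0.08 and the same sign in 70. The 3 coefficients are given as a description and lay near 0.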

How the data were processed

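RNA-seq libraries of 2 shCtrl and 2 shKIAA1429 samples of HCCLM3 cells were used. The deposited FPKM values per transcript were made by the authors; the submitters' processing notes name hg19 and Bowtie2 2.1.0, and the tool that gave FPKM is not given in the sources used here. Strand use and sequencing depth are not given in the sources used here. Rows typed lincRNA were kept by the stated exclusions and summed per gene identifier. The test was that of limma (version 3.58.1, under R 4.3.3, with lmFit and a trended eBayes) on log2(FPKM + 1), in features with at least 1 FPKM in at least 2 samples, fitted on the whole table with Benjamini-Hochberg adjustment, and the fit was tested on simulated data. Named genes were the 10 highest means, the 5 furthest upward and downward without overlap at a mean of at least 2 FPKM (likewise for transcripts) and fixed lists (microRNA hosts, X inactivation centre, RNA enzymes and templates, hepatoma and liver, p53 and DNA damage, growth and cancer). The members and lists were chosen with earlier results of these data known. Sequences came from GRCh37, GENCODE 44 lifted to it and RefSeq (GRCh38.p14, used for names, neighbours and microRNAs only), with blastn 2.17.0. Alternatives covered the pseudocount, filters, scaling, thresholds, variance estimate, replicate block, the sum per gene and leaving out each sample. Of the RNA enzymes and templates list, TERC was the member analysed.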

Additional observations from a re-analysis of the deposited data

How the results depend on the processing

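With 2 samples per group the test could find only differences far larger than the replicate spread. No lincRNA gene or transcript passed both thresholds under any alternative run with a test of both, namely the pseudocount of 0.1, no filter, FPKM of at least 1 in every sample, upper quartile scaling, the robust variance estimate, the replicate block, all listed rows of a Gene_id together (genes only) and leaving out each sample (0 to 0). An adjusted p alone also gave 0, and a fold change alone gave 1 gene and 10 transcripts. The count at an unadjusted p under 0.05 was 6 to 17 lincRNA genes (508 to 734 of all 11658 genes) and 6 to 19 transcripts (1372 to 2060 of all 24996) when a sample was left out, where a lone sample was assumed to vary like the other group. Genes without overlap numbered 125 higher and 70 lower with no filter and 46 higher and 33 lower of 270 where all 4 samples had to reach 1 FPKM (1759 and 1816 of all 10720 genes). When a sample was left out, so that 1 value stood against 2, they were 117 to 159 higher and 86 to 119 lower, and without shCtrl replicate 2 they were 117 higher and 119 lower. Fewer values separate more easily, so the counts without a sample cannot be set against those from all 4 samples. They were not made over all genes, and no conclusion is drawn from them. The median log2 fold change ran from -0.019 to 0.072 over the fits without 1 sample, the highest being without shCtrl replicate 1. VIRMA stayed lower throughout, from -0.80 to -0.26.

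The samples share a replicate number across the groups, but the labels tie it to no batch or day. Deviations from the group mean of same-numbered samples correlated at 0.44 over the 378 lincRNA genes and 0.32 over all genes, with 2 pairs only. With the replicate block, 0 lincRNA genes and 0 transcripts passed both thresholds and 37 of 378 lincRNA genes had an unadjusted p under 0.05, beside 1269 of all 11658 genes. It changed no call.

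Of 58 named log2 fold changes, 36 kept their direction in every alternative run, and none passed the threshold in any. The other 22 and the log2 ratio of summed FPKM changed sign when a sample was left out. The ranges were -0.0021 to 0.13 for the sum, -0.092 to 0.28 for AL356488.2, -0.11 to 0.13 for CYTOR, -0.011 to 0.11 for AC007952.4, -0.23 to 0.43 for AL360012.1, -0.38 to 0.34 for LINC01615, -0.37 to 0.71 for LINC02154, -0.12 to 0.076 for NORAD, -0.13 to 0.17 for MIR17HG, -0.032 to 0.26 for MIR181A1HG, -0.13 to 0.090 for MIR34AHG, -0.24 to 0.029 for MIR4458HG, -0.27 to 0.033 for MIR548XHG, -0.30 to 0.27 for MIR99AHG, -0.32 to 0.15 for MIRLET7BHG, -0.19 to 0.11 for JPX, -0.037 to 0.19 for LINC01021, -0.068 to 0.59 for DANCR, -0.42 to 0.17 for LINC00511, -0.32 to 0.16 for LINC00467, -0.37 to 0.022 for DLEU1, -0.025 to 0.18 for HCG11 and -0.030 to 0.20 for LINC01003. MIR99AHG also changed sign with a pseudocount of 0.1, at 0.0018. The cause of these changes was not tested.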
